A study of Mus musculus with 6 samples.

Results

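The genes described here are 10 members of the p53 pathway in the spinal cord of SMA mice, namely Trp53, Cdkn1a, Ccng1, Mdm2, Bax, Bbc3, Pmaip1, Phlda3, Eda2r and Sesn1. They were taken by gene symbol from the 6 bulk-seq libraries, in which 25576 genes were listed in at least 1 library, and all 10 were listed above 0 in every library. Bulk-seq was made from spinal cord of mice at postnatal day 4, with 3 libraries labelled SMA and 3 labelled control. SMA mice of the Taiwanese model on the FVB background lacked mouse Smn and carried the human SMN2 transgene (mSmn-/-, hSMN2 2tg/0). Control mice were heterozygous for the Smn knockout and carried the same transgene (mSmn+/-, hSMN2 2tg/0), so that the controls also had a knockout allele and human SMN2. The question of the comparison is which transcripts differ in level between SMA and control cord at this age. The methods speak of triplicates but also of n = 1 in each group, and do not state that the libraries of a group came from separate animals, so p-values measure the spread between these libraries, which may be technical in part.

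The p53 protein, encoded by Trp53, is a transcription factor that is held at a low level by the ubiquitin ligase Mdm2 and is stabilised after DNA damage and other stress. It then binds response elements near its target genes, among them the cell cycle inhibitor Cdkn1a, the apoptosis genes Bax, Bbc3 and Pmaip1, and Mdm2 itself, which closes a feedback loop. Because p53 is controlled mainly at the level of the protein, the transcripts of its targets are often read as a measure of its activity. In motor neurons of SMA mice, activation of p53 has been studied as a step on the way to cell death.

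Expression was measured as FPKM, fragments scaled to exon length and to the number of mapped fragments, which the authors had computed for each gene in each library. From 21197 to 22296 genes were listed per library. The number of reads is unknown because FPKM are not counts. The spacing of low FPKM values gave depths of 1.14, 1.08 and 1.03 in the control libraries and of 1.01 and 0.985 in SMA replicates 2 and 3, with SMA replicate 1 as 1. Values of a group are given in the order of replicates 1, 2 and 3. Differences are SMA minus control on the scale of log2(FPKM + 1), called log2 fold change here. Differences of genes at low FPKM come out too small on this scale. All were tested with limma over all genes whose mean reached 0.5 FPKM, 17088 genes in the 6 libraries, and a gene was called at an adjusted p under 0.05. All 10 members passed the minimum of 0.5 FPKM.

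Control replicate 2 stood apart from the other libraries. Its correlation with them across genes, which are not independent replicates, was between 0.836 and 0.849, while that among the other 5 libraries was at least 0.983. All 30 genes of a hepatocyte list were highest in this library, and their summed FPKM was 39908 there, against 148 and 112 in the other control libraries and 94.0, 174 and 100.4 in the SMA libraries. Alb, the most abundant of them, was listed at 15894 FPKM in control replicate 2 and between 24.6 and 56.2 FPKM elsewhere. An erythroid list held 4.58% of all FPKM of this library and between 0.304% and 0.518% elsewhere, with Hbb-bs as its most abundant gene. Of its 15 genes 14 are in the files, and Ahsp is not. A neutrophil list, led by S100a8, made up 0.113% there and at most 0.00374% elsewhere. Neuronal markers, led by Stmn2, had their lowest share there, 0.225%, where the other libraries ranged from 0.459% to 0.503%. All 12 neuronal markers had a log2 fold change above 0, with a median of 0.34 in the 6 libraries, and 8 of 12 with a median of 0.04 without control replicate 2. The comparisons are therefore given with and without control replicate 2, and the part of these transcripts in the results was not tested.

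**Figure D1:**
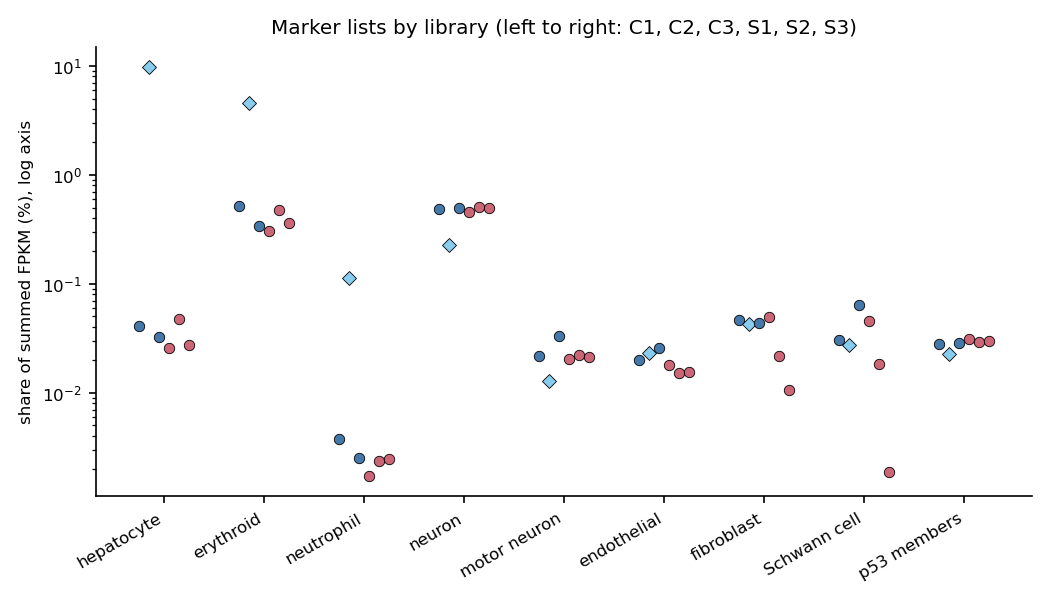
Share of the summed FPKM of each library (percent, log axis) held by lists of cell type markers and by the 10 p53 pathway members, with points from left to right for control replicates 1 to 3 (blue, replicate 2 as a light diamond) and SMA replicates 1 to 3 (red). Control replicate 2 holds 9.65% in hepatocyte markers and the lowest share of neuronal markers, and Schwann cell markers are lowest in SMA replicate 3.

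Smn1, the targeted gene, was at 10.4, 8.64 and 11.9 FPKM in the control libraries and at 8.48, 9.30 and 11.1 in the SMA libraries. The groups overlapped. Its log2 fold change was -0.09 (SE 0.15, adjusted p = 0.819 in limma), and -0.20 without control replicate 2 (SE 0.12, adjusted p = 0.614). FPKM over the whole gene do not show which exons were transcribed, so the genotype labels are not checked by Smn1, and SMA and control stand for the labels of the libraries throughout.

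No member of the pathway passed the adjusted threshold in SMA cord. Bax, Ccng1 and Eda2r were higher in each SMA library than in each control library, while Trp53 itself was not. Mean FPKM in SMA libraries was 1.23 times that in control libraries for Bax, 1.17 times for Ccng1 and 1.74 times for Eda2r. Cdkn1a, the best known target, was 1.22 times as high on average, with overlap between the groups. Against control replicates 1 and 3 alone these ratios were 1.17, 1.12, 1.85 and 1.12. In limma 0 of 17088 genes were called higher (0%) and 0 lower (0%), and the smallest adjusted p was 0.683. At an unadjusted p under 0.05, 2 of the 10 members were higher, Bax and Eda2r, and 0 were lower, where 3.4% of all genes tested were higher and 2.39% lower. The number of members higher was 3 without control replicate 1, 1 without control replicate 3 or SMA replicate 1, and 0 without SMA replicate 2 or SMA replicate 3. The share of all genes higher moved too, to 6.03% without control replicate 1, 6.07% without control replicate 3, and 1.39%, 1.49% and 1.25% without SMA replicates 1, 2 and 3. Groups did not overlap for 3 of the 10 members, all higher in SMA, and for 10.3% of all genes higher and 6.67% lower. Of the 10 members 8 had a log2 fold change above 0 and 2 below, beside 58% and 42% of all genes, and the median was 0.25 for the members and 0.04 for all genes.

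Without control replicate 2, 16574 genes were tested. There 2 genes were called higher (0.0121%) and 0 lower (0%), and none of the members was among them. At an unadjusted p under 0.05, 2 of the 10 members were higher, Bax and Eda2r again, and 0 lower, where 5.27% of all genes were higher and 5.2% lower. The groups did not overlap for Bax, Ccng1 and Eda2r, as for 14.2% of all genes higher and 13.9% lower. The log2 fold change was above 0 in 8 of 10 members and below 0 in 2, beside 50.4% and 49.6% of all genes, with medians of 0.19 and 0.00. Trp53 and Phlda3 changed sign between the fits, as described with their values. In bulk RNA a lower or higher value of a transcript cannot separate a different number of cells of a type from a different amount of RNA per cell.

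**Figure D2:**
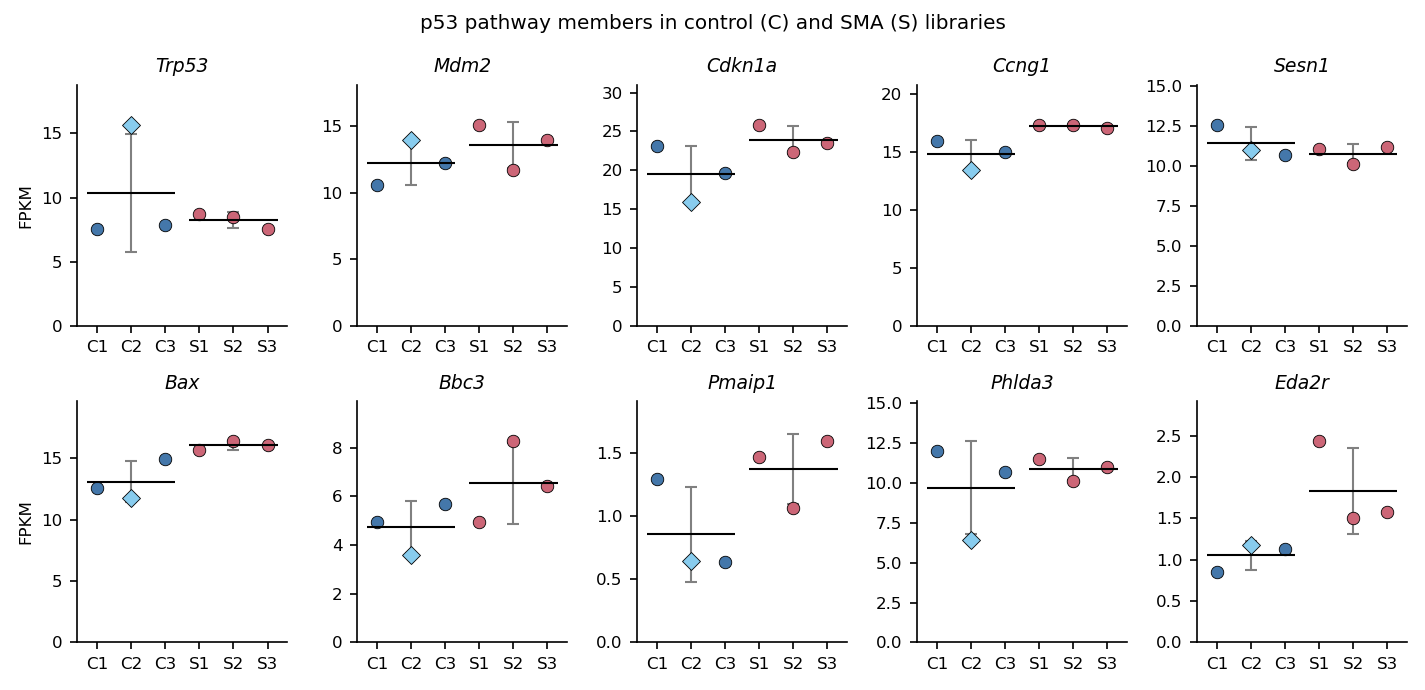
FPKM of the 10 p53 pathway members (linear axis from 0) in control replicates 1 to 3 (C1 to C3, blue, C2 as a light diamond) and SMA replicates 1 to 3 (S1 to S3, red), with the mean (black line) and SD (grey bar) of each group. The groups do not overlap for Ccng1, Bax and Eda2r, and C2 is the highest library for Trp53 and the lowest for Cdkn1a, Ccng1, Bax, Bbc3 and Phlda3.

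Trp53 (ENSMUSG00000059552, chr11:69580359-69591873, plus strand) was at 7.57, 15.7 and 7.89 FPKM in the control libraries and at 8.74, 8.46 and 7.52 in the SMA libraries. The 5 libraries other than control replicate 2 lay close together, and the groups overlapped with and without it. Its log2 fold change was -0.23 (SE 0.26, 95% interval -0.85 to 0.39, adjusted p = 0.731 in limma). Without control replicate 2 it was 0.08 (SE 0.10, 95% interval -0.15 to 0.31, adjusted p = 0.819), so the sign of the Trp53 difference depended on that library.

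Mdm2 (ENSMUSG00000020184, chr10:117688888-117710758, minus strand), the ubiquitin ligase that degrades p53 and is transcribed from a p53-responsive promoter, was at 10.6, 13.9 and 12.2 FPKM in the control libraries and at 15.1, 11.7 and 14.0 in the SMA libraries. SMA replicates 1 and 3 were the highest libraries, while SMA replicate 2 lay below control replicates 2 and 3. Between the groups the log2 fold change was 0.14 (SE 0.14, adjusted p = 0.709 in limma) and 0.23 without control replicate 2 (SE 0.12, adjusted p = 0.552). The exact two-sided permutation test of log2(FPKM + 1) gave p = 0.4 for Mdm2 in both sets of libraries and p = 0.8 and 0.6 for Trp53, where the smallest value it can give is 0.1 for 6 libraries and 0.2 without control replicate 2.

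Cdkn1a (ENSMUSG00000023067, chr17:29090979-29100722, plus strand) encodes p21, the inhibitor of cyclin-dependent kinases through which p53 stops the cell cycle. It was at 23.1, 15.9 and 19.6 FPKM in the control libraries and at 25.9, 22.4 and 23.5 in the SMA libraries. Control replicate 2 was the lowest library and SMA replicate 1 the highest, and control replicate 1 lay above SMA replicate 2. The mean was 19.6 ± 3.60 FPKM in control (SD, n = 3) and 23.9 ± 1.78 FPKM in SMA (SD, n = 3). On average the log2 fold change was 0.29 (95% interval -0.06 to 0.64, adjusted p = 0.683 in limma). When control replicate 2 was left out it was 0.16 (95% interval -0.06 to 0.38, adjusted p = 0.600), and the exact permutation test gave p = 0.2 with and p = 0.4 without that library. AC167363.2, annotated on the opposite strand, shares 273 exon bases with Cdkn1a and is listed at 0 in every library.

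Ccng1 (ENSMUSG00000020326, chr11:40748552-40755311, minus strand) encodes cyclin G1, which recruits a phosphatase that acts on Mdm2. It was at 16.0, 13.5 and 15.0 FPKM in the control libraries and at 17.3, 17.4 and 17.1 in the SMA libraries. All SMA libraries lay above all control libraries, and the SMA values lay closer together, with an SD of 0.126 FPKM against 1.26 FPKM in control. In control replicates 1 and 3 alone the SD was 0.695 FPKM. The log2 fold change was 0.21 (SE 0.10, 95% interval -0.02 to 0.44, adjusted p = 0.683 in limma) and 0.15 without control replicate 2 (SE 0.07, 95% interval -0.01 to 0.31, adjusted p = 0.504). The exact permutation test gave the smallest p it can give in the 6 libraries, 0.1, and 0.2 without control replicate 2.

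Sesn1 (ENSMUSG00000038332, chr10:41810574-41908424, plus strand), a stress-induced inhibitor of mTORC1 signalling, was at 12.6, 11.0 and 10.7 FPKM in the control libraries and at 11.1, 10.1 and 11.2 in the SMA libraries. The groups overlapped, with the highest value in control replicate 1 and the lowest in SMA replicate 2. Its log2 fold change was -0.07 (SE 0.10, adjusted p = 0.781 in limma) and -0.10 without control replicate 2 (SE 0.10, adjusted p = 0.760).

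Promoter windows from RefSeq on GRCm38.p6 (300 bases each, mostly upstream of a start) were found for 9 of the 10 members, with 13 windows among them, and Pmaip1 had no entry. Each was searched on both strands for the p53 response element consensus, a pair of decamers with no spacer that is its own reverse complement. Matches with at most 1 mismatch were found in the windows of Cdkn1a and Ccng1, which is the case for 0.0883% of the 32851 windows of all genes. Matches with 3 mismatches were the best in the windows of Bax, Bbc3, Trp53 and Sesn1, where 6.29% of all windows have a match with 3 or fewer, and the best matches of Mdm2, Phlda3 and Eda2r had 5, 5 and 6 mismatches. A match is a description of letters, and no factor binding was measured. The stretches around the best match are shown for Cdkn1a, Ccng1, Bax and Bbc3, with the 20 matched bases in capitals. The matches begin 51 bases before the RefSeq start for Cdkn1a, 195 for Ccng1, 211 for Bax and 97 for Bbc3, and are written on the strand of the gene.
Cdkn1a, chr17:29090908-29090967, plus strand: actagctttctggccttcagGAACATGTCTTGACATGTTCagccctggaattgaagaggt
Ccng1, chr11:40755442-40755501, minus strand: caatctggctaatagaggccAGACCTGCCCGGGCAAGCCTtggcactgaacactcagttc
Bax, chr7:45467070-45467129, minus strand: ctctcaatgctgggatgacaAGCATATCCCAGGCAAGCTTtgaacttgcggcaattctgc
Bbc3, chr7:16309466-16309525, plus strand: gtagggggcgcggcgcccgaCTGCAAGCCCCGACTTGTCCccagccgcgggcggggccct

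The Ccng1 match lies in a window that also holds CCAAT, as 37.4% of all windows do. Bax, with 3 mismatches, and Ccng1, with 1, were both higher in each SMA library, as was Eda2r, with 6, while Cdkn1a, with 1 mismatch, overlapped between the groups.

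Bax (ENSMUSG00000003873, chr7:45461695-45466898, minus strand) encodes the protein that permeabilises the outer mitochondrial membrane in apoptosis. It was at 12.6, 11.7 and 15.0 FPKM in the control libraries and at 15.7, 16.4 and 16.1 in the SMA libraries. All SMA libraries lay above all control libraries, with control replicate 3 the nearest. Its log2 fold change was 0.28 (SE 0.11, 95% interval 0.02 to 0.55), with an unadjusted p of 0.0400 and an adjusted p of 0.683 in limma. Without control replicate 2 it was 0.21 (SE 0.09, 95% interval 0.00 to 0.42), with an unadjusted p of 0.0461 and an adjusted p of 0.466. The exact permutation test gave p = 0.1 and 0.2. Gm45808, a gene annotated on the same strand, shares 192 exon bases with Bax and is listed at 0 in every library.

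Bbc3 (ENSMUSG00000002083, chr7:16309616-16318205, plus strand) encodes PUMA, a BH3-only protein that activates Bax. It was at 4.95, 3.58 and 5.70 FPKM in the control libraries and at 4.95, 8.27 and 6.43 in the SMA libraries. SMA replicates 2 and 3 were the highest libraries, while SMA replicate 1 lay within the control values. Between the groups the log2 fold change was 0.39 (SE 0.21, adjusted p = 0.683 in limma) and 0.23 without control replicate 2 (SE 0.18, adjusted p = 0.688).

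Pmaip1 (ENSMUSG00000024521, on chromosome 18) encodes NOXA, a BH3-only protein that binds Mcl1. It was at 1.29, 0.643 and 0.635 FPKM in the control libraries and at 1.47, 1.06 and 1.60 in the SMA libraries. SMA replicates 1 and 3 were above all control libraries, and control replicate 1 lay above SMA replicate 2. On average the log2 fold change was 0.37 (SE 0.20, adjusted p = 0.683 in limma) and 0.29 without control replicate 2 (SE 0.20, adjusted p = 0.645). The exact permutation test gave p = 0.3 for Bbc3 and p = 0.2 for Pmaip1 in the 6 libraries, and p = 0.6 and 0.4 without control replicate 2.

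Eda2r (ENSMUSG00000034457, chrX:97333840-97377216, minus strand) encodes a receptor of the tumour necrosis factor receptor family for ectodysplasin A2. It was at 0.857, 1.18 and 1.13 FPKM in the control libraries and at 2.43, 1.499 and 1.57 in the SMA libraries. All SMA libraries lay above all control libraries, and SMA replicate 1 lay above the other SMA libraries. The log2 fold change was 0.45 (95% interval 0.02 to 0.88), with an unadjusted p of 0.0420 and an adjusted p of 0.683 in limma. When control replicate 2 was left out it was 0.50 (95% interval 0.07 to 0.93), with an unadjusted p of 0.0292 and an adjusted p of 0.436, the lowest adjusted p among the members in that fit. Eda2r is on the X chromosome, and the libraries differed in sex-linked transcripts. Xist was at 0.116, 100.9 and 0.0857 FPKM in the control libraries and at 0.241, 0.216 and 146 in the SMA libraries. The highest Eda2r value was in a library with low Xist, SMA replicate 1, and the part of sex in the result was not tested.

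Phlda3 (ENSMUSG00000041801, chr1:135766119-135769136, plus strand) encodes a PH domain protein that competes with Akt for membrane lipids. It was at 12.01, 6.45 and 10.7 FPKM in the control libraries and at 11.5, 10.1 and 11.0 in the SMA libraries. Control replicate 2 was far below the other 5 libraries, which lay between 10.1 and 12.01 FPKM in both groups. Its log2 fold change was 0.19 (SE 0.21, adjusted p = 0.734 in limma) and reversed to -0.06 without control replicate 2 (SE 0.09, adjusted p = 0.872).

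**Figure D3:**
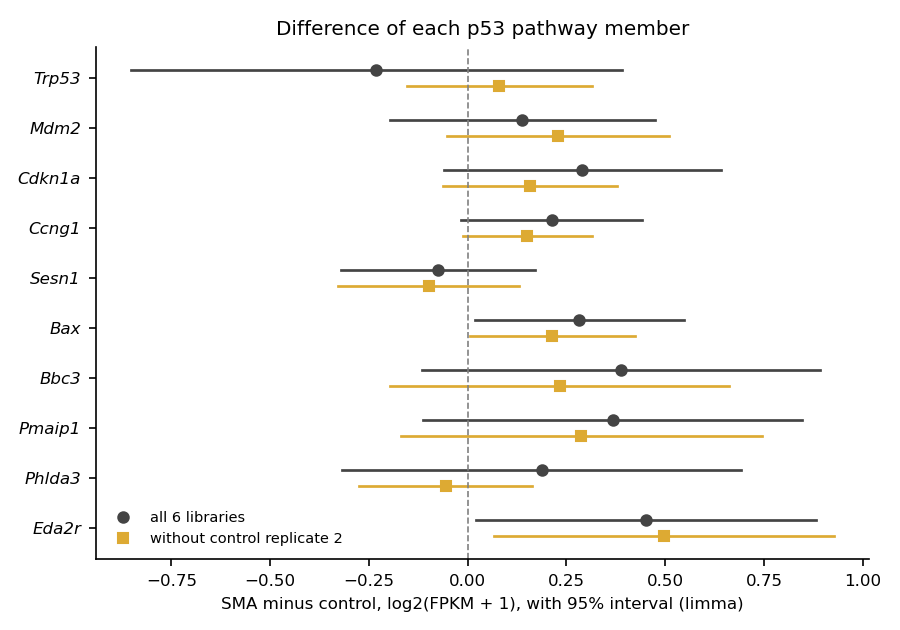
Log2 fold change (SMA minus control, log2(FPKM + 1)) of each p53 pathway member from limma with its 95% interval, in all 6 libraries (dark circles) and without control replicate 2 (yellow squares). The intervals lie above 0 for Bax and Eda2r in both fits before adjustment, and the estimates of Trp53 and Phlda3 change sign.

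The levels of the members spanned a wide range. FPKM are scaled to length, so that levels can be compared between genes. Cdkn1a had the highest mean over the 6 libraries, 21.7 FPKM, followed by Ccng1 at 16.0, Bax at 14.6, Mdm2 at 12.9, Sesn1 at 11.1, Phlda3 at 10.3, Trp53 at 9.31, Bbc3 at 5.65, Eda2r at 1.45 and Pmaip1 at 1.12 FPKM. Cdkn1a lay above Ccng1, Ccng1 above Bax, Trp53 above Bbc3 and Bbc3 above Eda2r in 6 of 6 libraries. Bax lay above Mdm2, Mdm2 above Sesn1 and Phlda3 above Trp53 in 5 of 6, and Sesn1 above Phlda3 and Eda2r above Pmaip1 in 4 of 6. In the 6 libraries the ranges of neighbours met for all pairs but Bbc3 and Eda2r. With control replicate 2 left out the order of the means was as before, and the ranges of Cdkn1a and Ccng1 and of Phlda3 and Trp53 did not meet either. Phlda3 then lay between 10.15 and 12.01 FPKM and Trp53 between 7.52 and 8.74 FPKM. The ranges of the other 6 pairs of neighbours met in both sets, although Ccng1 and Bax, and Trp53 and Bbc3, kept their order within every library. Control replicate 2 was the lowest library for 5 of the 10 members (50%), as for 44.9% of all genes tested, and the highest for 1 (10%), Trp53, as for 24.7% of all genes.

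Among 40 other p53 targets listed for comparison, 35 passed the minimum of 0.5 FPKM, and Gdf15, Tnfrsf10b, Ptprv, Trp53cor1 and Cd80 did not. At an unadjusted p under 0.05, 3 of the 35 were higher and 0 lower in the 6 libraries, beside 3.4% and 2.39% of all genes, and their median log2 fold change was 0.06. Without control replicate 2, 6 were higher and 0 lower, beside 5.27% and 5.2% of all genes, with a median of 0.04. With each SMA replicate left out in turn 0 were higher, beside 1.25% to 1.49% of all genes. Groups did not overlap for 5 higher and 0 lower in the 6 libraries, beside 10.3% and 6.67% of all genes, and for 8 higher and 1 lower without control replicate 2, beside 14.2% and 13.9%. The median of these targets was near that of all genes, 0.04 and 0.00. No target of the list passed the adjusted threshold, and the lowest adjusted p was 0.287, for Ephx1 without control replicate 2.

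Sulf2, an extracellular sulfatase of heparan sulfate, was at 37.0, 27.8 and 35.1 FPKM in the control libraries and at 44.3, 41.6 and 41.0 in the SMA libraries. Each SMA library was above each control library, with a log2 fold change of 0.35 and of 0.22 without control replicate 2 (adjusted p = 0.683 and 0.358 in limma). Ddit4, an inhibitor of mTORC1 that responds to hypoxia and glucocorticoids as well as to p53, was at 19.9, 13.1 and 19.2 FPKM in the control libraries and at 23.5, 22.0 and 24.6 in the SMA libraries. The groups did not overlap here either, and the log2 fold change was 0.43, or 0.25 without control replicate 2 (adjusted p = 0.683 and 0.366 in limma). Its relative Ddit4l was at 3.62, 2.67 and 1.79 FPKM in the control libraries and at 4.02, 4.02 and 4.68 in the SMA libraries. Ddit4l was higher in all SMA libraries, with log2 fold changes of 0.53 and 0.54 (adjusted p = 0.683 and 0.443 in limma). It was 0.35 without control replicate 3 and 0.71 without control replicate 1.

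Ephx1, which encodes microsomal epoxide hydrolase and is abundant in liver, was at 3.63, 17.1 and 4.02 FPKM in the control libraries and at 6.88, 5.60 and 6.33 in the SMA libraries. Control replicate 2, the library with hepatocyte transcripts, was the highest, and the other control libraries were below all SMA libraries. Between the groups the log2 fold change was -0.05 in the 6 libraries and 0.59 without control replicate 2, with an unadjusted p of 0.00157 and an adjusted p of 0.287 in limma. Trp53inp1 and Xpc, named after their values were seen, complete the 6 targets past the unadjusted threshold without control replicate 2, with log2 fold changes of 0.25 and 0.30.

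**Figure D4:**
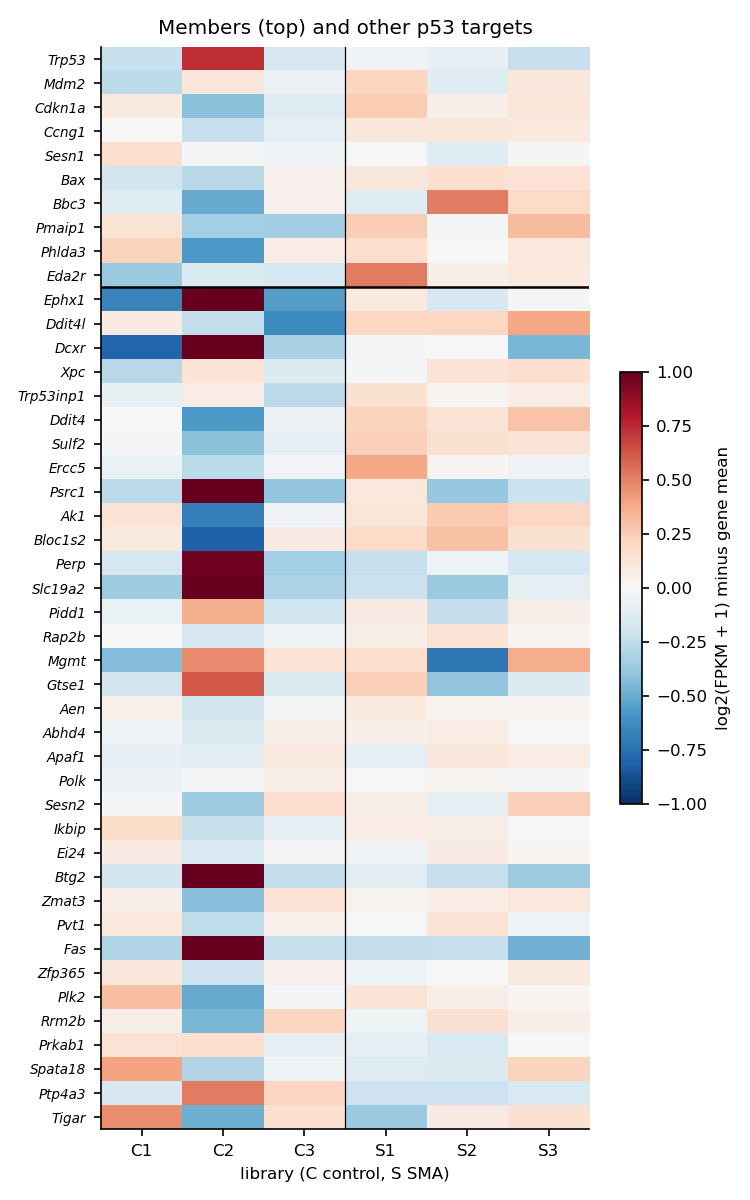
Log2(FPKM + 1) minus the mean of the gene over the 6 libraries (colour, limited to -1 to 1) for the 10 members (top) and the 35 other p53 targets tested, which are ordered by their log2 fold change without control replicate 2, in control (C1 to C3) and SMA (S1 to S3) libraries. C2 differs from the other libraries in many genes in either direction, and Ddit4l, Ddit4 and Sulf2 are higher in all SMA libraries.

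Of 23 regulators of p53, 22 were tested, with a median log2 fold change of 0.02 in both fits. At an unadjusted p under 0.05, 0 were higher and 1 lower in the 6 libraries, beside 3.4% and 2.39% of all genes, and 2 were higher and 1 lower without control replicate 2, beside 5.27% and 5.2%. With each SMA replicate left out in turn 0 were lower, beside 0.731% to 1.79% of all genes. Without control replicate 1, 2 were lower, beside 3.35%, and without control replicate 3, 1 was higher, beside 6.07%. Chek2, a kinase of the DNA damage response that phosphorylates p53, was at 1.49, 3.34 and 1.44 FPKM in the control libraries and at 0.836, 1.09 and 0.835 in the SMA libraries. Chek2 was lower in each SMA library than in each control library, with log2 fold changes of -0.64 and, without control replicate 2, -0.36 (adjusted p = 0.683 and 0.447 in limma). Rpl5, a ribosomal protein that can bind and inhibit Mdm2, was at 140.3, 164 and 124 FPKM in the control libraries and at 166, 168 and 151 in the SMA libraries. The groups overlapped through control replicate 2, and the log2 fold change was 0.18, or 0.29 without that library (adjusted p = 0.683 and 0.344 in limma). With each library left out the Rpl5 value ranged from 0.086, without control replicate 3, to 0.29. Crebbp, an acetyltransferase and coactivator of p53, had log2 fold changes of 0.20 and 0.15 (adjusted p = 0.683 and 0.468 in limma), and its SMA libraries lay above all control libraries. In the 6 libraries the groups did not overlap for 4 regulators higher and 3 lower, beside 10.3% and 6.67% of all genes. Without control replicate 2 this was so for 6 higher and 3 lower, beside 14.2% and 13.9%.

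The BCL2 family and the apoptosome, the partners of Bax, Bbc3 and Pmaip1, were tested in 15 of 16 genes, with medians of 0.03 and -0.05. At an unadjusted p under 0.05, 0 were higher and 1 lower in the 6 libraries, beside 3.4% and 2.39% of all genes. In the 5 libraries other than control replicate 2, 0 were higher and 3 lower, beside 5.27% and 5.2%. Leaving out each SMA replicate in turn gave 0 lower, beside 0.731% to 1.79% of all genes. Bcl2l1, which encodes the antiapoptotic protein Bcl-xL, was at 24.8, 32.7 and 25.6 FPKM in the control libraries and at 21.9, 21.8 and 20.7 in the SMA libraries. All SMA libraries lay below all control libraries, where Bax lay above them. In the list, the groups did not overlap for 0 genes higher and 2 lower in the 6 libraries, beside 10.3% and 6.67% of all genes. Without control replicate 2 this was so for 1 higher and 4 lower, beside 14.2% and 13.9%. The log2 fold change of Bcl2l1 was -0.34, and -0.22 without control replicate 2 (adjusted p = 0.683 and 0.366 in limma). Cycs, which encodes cytochrome c, was at 36.2, 25.7 and 34.6 FPKM in the control libraries and at 29.4, 29.4 and 30.9 in the SMA libraries. Control replicate 2 was the lowest library for Cycs, and the other control libraries were above all SMA libraries. Its log2 fold change was -0.09, and -0.24 without control replicate 2 (adjusted p = 0.807 and 0.313 in limma).

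Relatives of the members from the same gene families passed the minimum in 8 of 12 genes. None of them had an unadjusted p under 0.05 in either fit in limma. Among all genes 3.4% were higher and 2.39% lower in the 6 libraries, and 5.27% and 5.2% without control replicate 2. At the adjusted threshold 0 relatives were called higher and 0 lower, and their medians were 0.00 and -0.05. Leaving out SMA replicate 1 gave 1 lower, beside 1.79% of all genes. The highest mean among them was that of Sesn3, a relative of Sesn1, at 48.3, 34.5 and 48.5 FPKM in control and 45.7, 47.9 and 46.8 FPKM in SMA libraries. The groups overlapped for Sesn3 through control replicate 2, and the other control libraries lay above all SMA libraries.

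Cell cycle genes of a list described as lowered by p53 through p21 were all tested, 31 of 31. All 31 were highest in control replicate 2, and their summed FPKM reached 129, 370 and 118 in the control libraries but 111, 86.0 and 97.7 in the SMA libraries. At an unadjusted p under 0.05, 0 were higher and 5 lower in the 6 libraries, beside 2.39% of all genes lower, with a median log2 fold change of -0.78. Without control replicate 2, 0 were higher and 10 lower with a median of -0.28, beside 5.2% of all genes lower. The number lower was 2 without SMA replicate 1, 0 without SMA replicate 2 or SMA replicate 3, 9 without control replicate 1 and 14 without control replicate 3, beside 1.79%, 0.83%, 0.731%, 3.35% and 4.16% of all genes lower in these 5 fits. It was 11 with rescaling to the same total, 9 with a pseudocount of 0.1, and 3 with the replicate block and pair 2 left out, beside 2.26%, 2.74% and 3.34% of all genes lower. SMA and control values did not overlap for 13 genes lower and 0 higher in the 6 libraries, beside 6.67% of all genes lower and 10.3% higher. In the 5 libraries other than control replicate 2 this was so for 13 lower and 1 higher, beside 13.9% and 14.2% of all genes. None passed the adjusted threshold, and the lowest adjusted p was 0.308.

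Ccnb1, the mitotic cyclin B1, was at 5.88, 15.6 and 4.69 FPKM in the control libraries and at 3.30, 2.85 and 3.56 in the SMA libraries. Ccna2, cyclin A2, was at 9.03, 27.4 and 7.93 FPKM in the control libraries and at 6.78, 5.05 and 5.74 in the SMA libraries. Both were lower in each SMA library, and control replicate 2 was the highest library by far. Log2 fold changes were -1.04 and -1.002 with control replicate 2, and -0.57 and -0.47 without it (adjusted p = 0.308 and 0.358 in limma). The replication and mitosis genes Mcm3, Top2a, Bub1b, Kif20a, Cenpf and Brca1 were likewise lower in each SMA library, with log2 fold changes from -1.09 for Mcm3 to -0.64 for Brca1, and from -0.50 for Bub1b to -0.39 for Cenpf without control replicate 2. Cdkn1a, which encodes p21, overlapped between the groups. The part of p21, of the number of dividing cells or of the transcripts peculiar to control replicate 2 in these values was not tested.

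**Figure D5:**
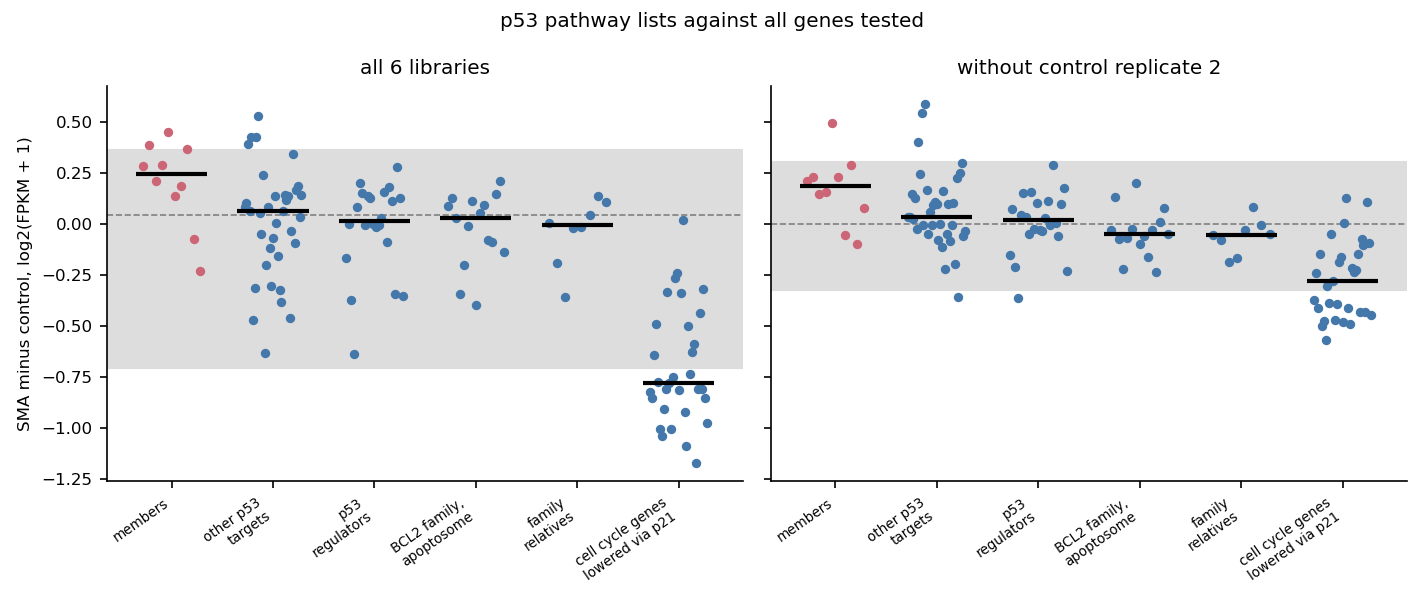
Log2 fold change (SMA minus control, log2(FPKM + 1)) of each tested gene (points) of the 10 members (red) and of the other pathway lists (blue), with the median of each list (black line), in all 6 libraries and without control replicate 2. The grey band runs from the 5th to the 95th percentile of all genes tested and the dashed line is their median, and the median of the cell cycle genes moves from -0.78 to -0.28 when control replicate 2 is left out.

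Markers of other cells were examined beside the members. All 8 endothelial genes had a log2 fold change below 0 in both fits, as had 42% of all genes in the 6 libraries and 49.6% without control replicate 2. The number of them lower at an unadjusted p under 0.05 was 4 in each fit, beside 2.39% and 5.2% of all genes. Summed FPKM of these 8 genes reached 72.7, 95.4 and 89.2 in the control libraries but 65.2, 54.8 and 57.2 in the SMA libraries. The most abundant, Cldn5, was at 25.8, 20.4 and 24.96 FPKM in the control libraries and at 16.4, 15.7 and 14.4 in the SMA libraries. Schwann cell markers varied within the SMA group, with sums of 168, 67.4 and 6.87 FPKM against 111, 114 and 223 FPKM in the control group. Meningeal and perivascular fibroblast markers, led by Col1a2, summed to 167, 175 and 151 FPKM in control and to 183, 79.1 and 39.0 FPKM in SMA libraries. The summed FPKM of the 10 members were 101.5, 93.6 and 98.6 in control and 114, 107 and 110.0 in SMA libraries. All SMA sums lay above all control sums, as did the values of 10.3% of all genes tested singly. The abundant members weigh most in these sums, and control replicate 2 had the lowest. The part of these cell types in the values of Bax, Ccng1 and Eda2r was not tested.

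Motor neuron markers, led by Prph, summed to 77.5, 52.7 and 116 FPKM in control and to 75.1, 81.3 and 78.4 FPKM in SMA libraries. The groups overlapped, and 0 of 8 tested genes were past an unadjusted p under 0.05 in the 6 libraries, beside 3.4% of all genes higher and 2.39% lower. Without control replicate 2, 2 of 8 were lower, beside 5.2%. The members were measured in RNA of the cord as a whole, in which motor neurons are a small part.

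Among the genes whose log2(FPKM + 1) followed Cdkn1a most closely over the 6 libraries were Gm43807, Gm10699, Phf21a and Zfp354a, with Pearson's r between 0.995 and 0.996. Over the 5 libraries without control replicate 2 they were Klhl21, Smc3, Mxd4, Nov and Rps15, with r between 0.994 and 0.997. No gene was in both groups, and with so few libraries these coefficients are a description. Among the members, Ccng1 followed Cdkn1a with r = 0.933 over the 6 libraries and 0.782 over the 5, Pmaip1 with 0.878 and 0.902, and Phlda3 with 0.889 and 0.490. For the other members r over the 6 and the 5 libraries was 0.652 and 0.0954 for Bax, 0.515 and -0.27 for Bbc3, 0.522 and 0.659 for Eda2r, 0.198 and 0.278 for Sesn1, -0.0069 and 0.514 for Mdm2 and -0.79 and 0.352 for Trp53.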

How the data were processed

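Bulk-seq libraries of spinal cord were grouped by their labels, 3 SMA and 3 control. Per gene and library the authors deposited FPKM, calculated with cufflinks after hisat2 alignment of strand-specific, rRNA-depleted libraries. The build in the submitters' processing notes is mm10, tool versions and the annotation release are not given in the sources used here, and neither is whether counting used strand. The study's count-based test could not be used on FPKM. A gene absent from a library was set to 0 FPKM. Log2(FPKM + 1) of genes whose mean reached 0.5 FPKM was compared with limma 3.58.1 (R 4.3.3, lmFit and eBayes with trend), with Benjamini-Hochberg adjustment over every gene tested. Exact two-sided permutation tests were made with scipy 1.17.1. The procedure was tested on simulated data, with the spread taken without control replicate 2 and with changes larger than those of the members. How it performs with the spread of that library or for smaller changes was not tested. The 10 members and the gene lists were chosen with earlier results of these data known. Named genes were the members, Smn1, from each other pathway list up to 6 genes with the smallest unadjusted p under 0.05 and up to 4 by the same rule without control replicate 2, the most abundant gene of each marker list, and the 5 genes most like Cdkn1a in each set of libraries. A few genes that this rule names are not reported here. Positions are 1-based and fit GRCm38, and no member shares its locus entry with another gene. Alternatives were another pseudocount, filter and scaling, each library left out, and the replicate number as a block.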

Additional observations from a re-analysis of the deposited data

How the results depend on the processing

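Over 15 alternatives no member reached an adjusted p below 0.433 in limma, and 8 of 10 log2 fold changes were above 0 in each. Trp53 reversed to 0.080 without control replicate 2, to 0.077 with median ratio scaling in addition, and to 0.062 with the replicate block and pair 2 left out, and Phlda3 reversed to -0.055, -0.058 and -0.010 in these settings. With each library left out Trp53 ranged from -0.40 to 0.080 and Phlda3 from -0.055 to 0.35. The other 8 members kept their direction, Bax between 0.20 and 0.38, Ccng1 between 0.15 and 0.26, Eda2r between 0.31 and 0.72, Cdkn1a between 0.15 and 0.41, Pmaip1 between 0.28 and 0.67, Mdm2 between 0.043 and 0.33, Bbc3 between 0.073 and 0.55 and Sesn1 between -0.13 and -0.0080. The lowest value of Mdm2 and the highest of Sesn1 came without control replicate 1, and the lowest of Bbc3 with the block and pair 2 left out. The cause was not tested.

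The count of members higher at an unadjusted p under 0.05, 2 in the main comparison, was 1 with a minimum of 1 FPKM, with median ratio scaling alone or without control replicate 2, and with rescaling to the same total, beside 3.38%, 3.09%, 5.06% and 1.98% of all genes higher. It was 3 with no filter, beside 3.45%, and 0 to 3 with each library left out, beside 1.25% to 6.07%. For the other p53 targets it was 1 with rescaling to the same total, 6 with median ratio scaling and without control replicate 2, and 0 to 6 with each library left out, beside 1.98%, 5.06% and 1.25% to 6.07% of all genes, and 0 to 1 were lower. Over all genes, leaving out each library gave 0 to 2 higher at the adjusted threshold, and 214 to 1040 higher and 125 to 862 lower at the unadjusted one. With median ratio scaling and without control replicate 2 the adjusted count was 1 higher and the unadjusted counts 838 higher and 897 lower. With no filter 882 genes were higher, and with the same total 338.

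The replicate numbers are shared between the groups, but libraries with the same number did not deviate together (r of deviations -0.04, 0.02 and 0.08). With the replicate number as a block, 356 genes were higher and 303 lower at an unadjusted p under 0.05, and 0 members were higher, beside 2.08% of all genes.

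Ephx1 reversed to 0.59 without control replicate 2, 0.02 without SMA replicate 2, 0.59 with median ratio scaling in addition to leaving out control replicate 2, and 0.66 with the block and pair 2 left out. Cycs reversed to 0.0013 without control replicate 1. With each library left out Ephx1 ranged from -0.39 to 0.59 and Cycs from -0.24 to 0.0013. Without read counts the precision at low FPKM, as for Pmaip1 and Eda2r, is unknown.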

Other observations

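Sex-linked transcripts differed between libraries of the same label. Ddx3y was at 9.05, 5.25 and 10.6 FPKM in the control libraries and at 11.5, 12.6 and 0 in the SMA libraries, in the order of the replicates, and Eif2s3y was at 34.2, 10.1 and 32.7 FPKM in the control group against 33.6, 31.0 and 0.0325 in the SMA group. Control replicate 2 thus held Xist together with Y-linked transcripts, and SMA replicate 3 held Xist with hardly any.

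The genes called at an adjusted p under 0.05 in limma without control replicate 2, named after their values were seen, were Snora74a, with a log2 fold change of 3.13 (adjusted p = 0.0215), and Rpph1, with 0.63 (adjusted p = 0.0424). With the replicate block and pair 2 left out, 0 genes were called higher and 0 lower at the adjusted threshold, so neither gene was called there. Both are small noncoding RNAs, and neither is a p53 pathway gene of the lists used here.

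Oligodendrocyte lineage markers, led by Mbp, had a median log2 fold change of -0.13 (-0.22 without control replicate 2), astrocyte markers, led by Gfap, of 0.07 (0.03) and microglia markers of -0.05 (-0.04). Skeletal muscle markers, led by Acta1, summed to at most 7.95 FPKM and dorsal root ganglion markers to at most 3.38 FPKM in any library.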
